A study of Mus musculus with 8 samples.

Results

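The broad regions of a chromatin immunoprecipitation sequencing (ChIP-seq) library from control mouse hepatocytes are described here. The authors' list for that library holds 22793 rows, 1 for each summit, and rows with the same chromosome, start and end were taken as 1 region, which gave 16995 regions. Those spanning 3000 bp or more were kept: 323 regions, or 1.9% of all. They were chosen by their measured width, so width and what goes with it in that list are a description. Each was assigned to the genes of the RNA table whose span it overlapped by at least 1 base, which named 256 of 27277 genes, called member genes below. What a second library, from knockout cells, listed over the same stretches and what the RNA of the member genes did were measured in other samples. The choice still rested on the control list alone and took its widest regions. What this one-sided choice adds to the differences between genotypes below was not tested.

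All 8 libraries of the study came from primary hepatocytes, the liver's metabolic cells, cultured for 24 h and given 100 nM glucagon, the fasting hormone, for 12 h. Control cells carried the floxed gene alone (Lcmr1f/f), and knockout cells carried it together with Cre recombinase under the albumin promoter (Lcmr1f/f * albumin-cre), which is active in hepatocytes. The gene Med19 was formerly called Lcmr1. RNA was sequenced in 3 libraries per genotype and ChIP in 1 library per genotype, so no comparison of the ChIP lists has a replicate check. The submitters' texts differ on what was precipitated: the ChIP sample titles read "RNA poll III", while the series' design text names Lcmr1. The precipitated factor is therefore given no name below. None of the 12 RNA polymerase III transcripts on a list of such genes, of which 3 were in the RNA table, was a member gene.

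Mediator is the complex that relays signals from transcription factors on DNA to RNA polymerase II, and Med19 is one of its subunits. Broad ChIP signal that runs through a gene is known for factors that travel with an elongating polymerase, and RNA polymerase II is known to stay on the template for some distance past the end of a gene before it is released. Hepatocytes make most plasma proteins, clear ammonia through the urea cycle and release glucose in fasting, and the genes for these tasks are among their most transcribed.

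The 300 bases around the start of 5 member genes are given as examples of starts inside a broad region. These genes were picked and are not a typical set, and shares over all such starts follow after them. Errfi1, Alb, Pck1 and Tat lay under regions with some of the highest folds over background and stayed covered in the knockout list, and G6pc is the gene named in the series title. The sequences are from RefSeq (GRCm38.p6, the same assembly as mm10), plus strand, 5′ to 3′, from 250 bases before to 50 after the start. Starts here and in the shares below are those of RefSeq, while other positions use the gene models of the RNA table. For Errfi1 the model's start lay 0.671 kb ahead of its broad region, and the RefSeq start lay inside it. Capitals mark letters of 3 known elements, each searched on both strands. One is TGACGT, the core of a cyclic AMP response element, which binds the glucagon-responsive factor CREB. Another is the TATA box, searched as TATAAA, which places the polymerase near the start. The last is a stretch from the site of the liver factor HNF1, searched as GTTAAT.
Errfi1, chr4:150854820-150855119: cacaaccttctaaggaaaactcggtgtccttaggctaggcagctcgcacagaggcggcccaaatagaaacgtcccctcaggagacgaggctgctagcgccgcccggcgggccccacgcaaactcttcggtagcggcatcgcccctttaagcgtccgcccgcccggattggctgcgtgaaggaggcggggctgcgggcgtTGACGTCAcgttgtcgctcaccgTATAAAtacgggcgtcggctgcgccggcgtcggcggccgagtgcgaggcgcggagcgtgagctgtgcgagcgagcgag
Pck1, chr2:173152823-173153122: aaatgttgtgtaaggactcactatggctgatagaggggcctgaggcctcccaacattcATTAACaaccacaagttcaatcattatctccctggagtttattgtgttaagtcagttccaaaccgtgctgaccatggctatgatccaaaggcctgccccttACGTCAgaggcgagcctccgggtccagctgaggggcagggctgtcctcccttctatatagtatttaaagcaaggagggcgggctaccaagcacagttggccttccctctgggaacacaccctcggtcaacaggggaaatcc
G6pc, chr11:101367466-101367765: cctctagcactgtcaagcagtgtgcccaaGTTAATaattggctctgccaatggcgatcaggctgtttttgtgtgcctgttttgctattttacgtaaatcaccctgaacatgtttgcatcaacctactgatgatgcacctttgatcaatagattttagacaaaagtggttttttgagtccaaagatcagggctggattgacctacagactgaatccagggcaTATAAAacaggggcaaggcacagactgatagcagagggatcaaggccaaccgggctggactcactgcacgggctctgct
Alb, chr5:90460620-90460919: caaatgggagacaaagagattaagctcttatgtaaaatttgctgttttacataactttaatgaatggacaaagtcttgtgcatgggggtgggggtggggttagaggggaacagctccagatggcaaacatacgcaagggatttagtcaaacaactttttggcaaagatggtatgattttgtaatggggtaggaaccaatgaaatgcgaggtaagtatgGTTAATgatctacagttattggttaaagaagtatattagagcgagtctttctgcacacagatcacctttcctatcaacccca
Tat, chr8:109990186-109990485: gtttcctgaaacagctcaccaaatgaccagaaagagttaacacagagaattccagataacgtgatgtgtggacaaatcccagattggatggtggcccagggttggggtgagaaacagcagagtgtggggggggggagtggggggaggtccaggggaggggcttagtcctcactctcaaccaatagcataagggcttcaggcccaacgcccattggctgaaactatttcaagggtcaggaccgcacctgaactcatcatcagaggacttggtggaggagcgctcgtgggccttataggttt
In Errfi1 the complete palindrome TGACGTCA began 51 bases before the start, followed by a TATA box at 28 bases. In Pck1 the cyclic AMP core, printed here as its reverse complement, began 91 bases before the start, and the HNF1 letters, also reversed, at 192 bases. G6pc had a TATA box at 29 bases and the HNF1 letters at 221 bases before the start, Alb had the HNF1 letters at 32 bases, and in the Tat window none of these letters were found.

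RefSeq promoters were found by symbol for 173 of the 256 member genes, and 48 promoters of 46 genes had their start inside a broad region. TGACGT occurred in 7 of the 48 (14.6%), against 7.51% of all 32851 promoters of that length. The genes were 1700045H11Rik, Dusp1, Errfi1, Hspa5, Insig1, Pck1 and Slc25a25. The complete TGACGTCA, which holds TGACGT on both strands, occurred in 4 of them (8.33% against 1.79%), namely 1700045H11Rik, Dusp1, Errfi1 and Slc25a25. Errfi1 and 1700045H11Rik are transcribed away from each other and share the same copy. TATAAA occurred in 18.8% against 13.6%, GTTAAT in 14.6% against 7.1%, and CAAAGTCCA, a site of HNF4, in 0 of the 48 against 0.475%. The B box, an element inside many genes of RNA polymerase III, also occurred in 0 of the 48, against 0.0457% of all promoters. At shares this low 48 promoters would seldom hold either element, so neither 0 tells the sets apart. For the B box the window also ends 50 bases past the start, while the element lies inside the gene. The other shares rest on few of the 48 promoters, and their differences from all promoters were not tested.

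The broad regions ran from 3004 to 49359 bp, with a median of 4944 bp against 381 bp over the whole list. They covered 2263 kb, or 21.7% of the listed bases, and held 3913 summits (17.2% of all rows), from 3 to 96 per region with a median of 8. They lay on all 19 autosomes. The fold over background at the highest summit, as the authors' list gives it, ranged from 1.89 to 72.8 with a median of 12.7, and was 4.91 at the median of the narrower regions. Wider regions had higher top folds (Spearman's rho 0.68 over the 323 regions, a description of 1 list in which both come from the same signal). The 3 regions just above the minimum lay in Midn (3004 bp), Cps1 (3015 bp) and Rbm47 (3021 bp), and the 3 just below it in Gdf15 (2994 bp), Wbp1l (2982 bp) and Plpp3 (2954 bp).

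**Figure D1:**
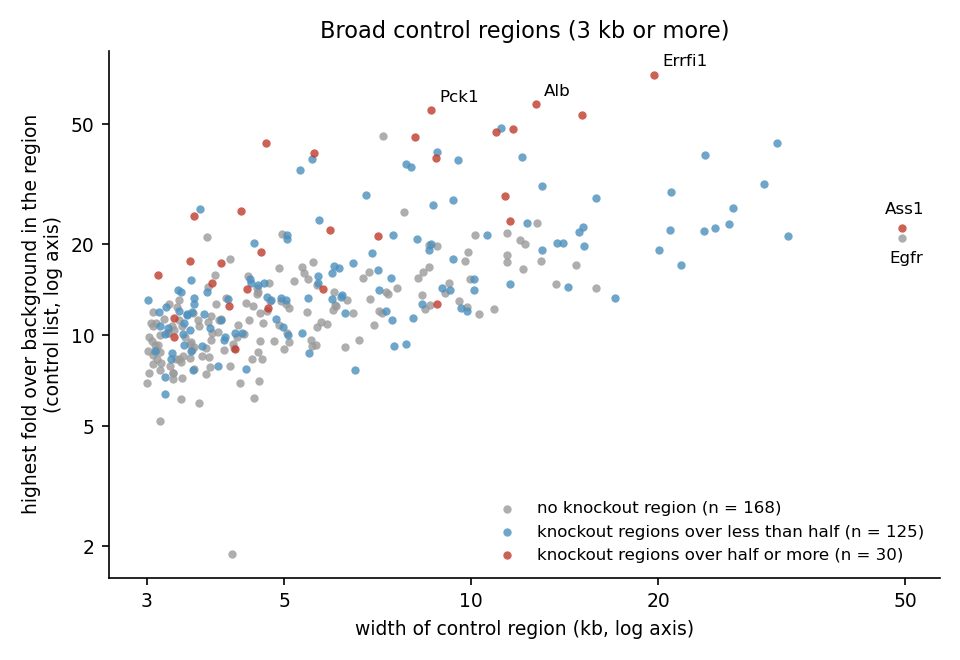
Each point is 1 of the 323 broad control regions, by its width in kb and the highest fold over background among its summits in the control list, both on log axes. Colour gives how much of the region the knockout list covered: 168 regions had no knockout region, 125 were covered over less than 50% and 30 over 50% or more, among them those of Errfi1, Alb and Pck1.

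Nearly all of this signal lay in genes. Of the bases in broad regions, 91.0% fell inside genes of the RNA table, against 84.1% for the narrower regions. By position, 173 regions lay inside a gene, 81 covered a gene's end, 11 a gene's start and 51 both, and 7 overlapped no gene of the table. These 7 stood on chromosomes 2, 6, 15 and 19, the widest at chr6:31065267-31069835 (mm10). Of the 316 regions with a gene, 241 overlapped 1 gene and 75 several. Starts and ends were counted over all genes a region overlapped, so the 2 could belong to different genes or to a small gene inside a larger one. The widest region of Egfr counted as both through the antisense gene Egfros inside it. The gene sharing most bases with a region is called its main gene, and 185 genes were main genes.

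Long genes carried broad regions in series. Mtss1, which codes for a protein that shapes the cell membrane, had 18, adenosine kinase (Adk) and carbamoyl phosphate synthetase (Cps1), which starts the urea cycle, had 12 each, the nuclear receptor Rxra had 11 and the receptor for epidermal growth factor, Egfr, had 10. In all, 54 member genes had more than 1. Broad regions covered 143463 of the 165956 bp of Egfr (86.4%) and 91.7% of Rxra, but 16.2% of Adk, whose span is 395996 bp. Over the 185 main genes the median share of the gene's span under broad regions was 48.6%, with 90 genes covered over at least 50% and 37 over at least 90%. G6pc (chr11:101367561-101377903, 10343 bp), Pck1 and Tat were covered over 100% of their span, Alb over 98.3% and Errfi1 over 95.5%. The width of a region had no rank relation with the span of its main gene (Spearman's rho -0.05 over 316 regions).

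Along the genes, the summits leaned towards the end. Of 3872 summits in broad regions with a main gene, 34.8% lay in the first 50% of the gene's span, 56.2% in the second and 8.42% past the end, whereas 17194 summits of narrower regions were at 46.9%, 46.5% and 1.56%. The first 10% of the gene held 5.58% of the summits in broad regions and 21.1% of those in narrower ones. Of the highest summits of the regions, 61.4% lay in the second 50% of the gene. These positions describe the same list that gave the widths, and a region that covers a gene's end is by its width likely to reach past it.

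**Figure D2:**
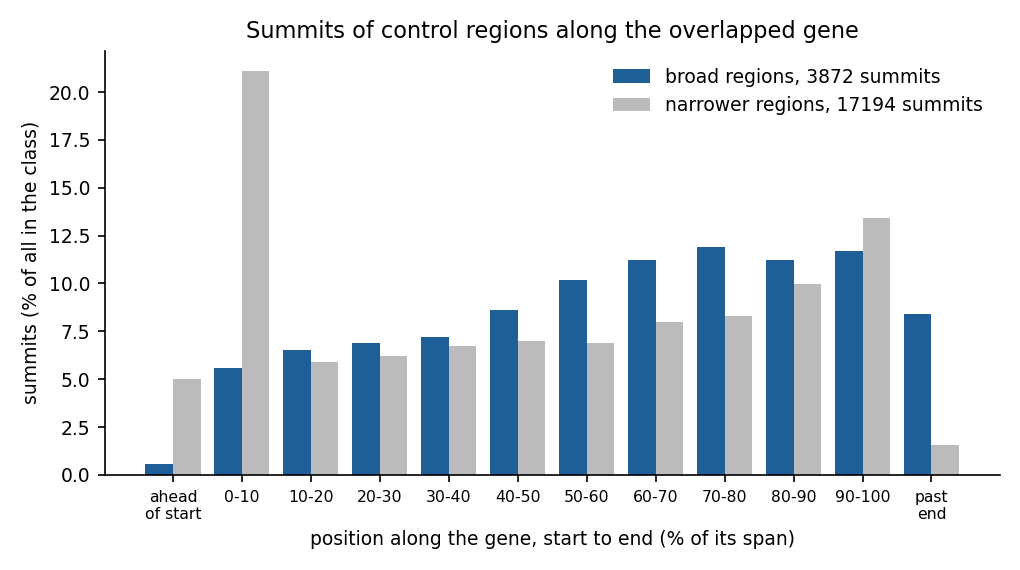
Bars give the percentage of summits in each 10% of the main gene's span, ahead of its start or past its end, for 3872 summits of broad regions and 17194 of narrower regions in the control list. The narrower regions peaked in the first 10% (21.1%), while the broad ones lay mostly from 50% of the span onward, with 8.42% past the end.

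A total of 109 regions covered the end of their main gene, and they ran past it by a median of 1410 bp (2 to 10087 bp), 84 of them by 1000 bp or more. The longest run was at Neat1. Errfi1 had one of 5359 bp and Herpud1, which helps remove misfolded proteins of the endoplasmic reticulum, one of 5088 bp. At the other end, 32 regions covered the start of their main gene and reached a median of 176 bp ahead of it (32 to 2798 bp), 4 of them by 1000 bp or more. Ends come from the gene models of the RNA table, so an RNA that continues past the model counts as past the end.

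The widest region, 49359 bp (chr11:16786011-16835369), lay within Egfr and had 82 summits with a top fold of 21.0. One of 49355 bp (chr2:31472718-31522072) covered nearly all of argininosuccinate synthase, Ass1, a urea cycle enzyme, with 96 summits and a top fold of 22.5. Others among the 10 widest lay at Lpin1, a phosphatidate phosphatase (32402 bp), Neat1, the RNA that builds nuclear paraspeckles (31027 bp), the sterol carrier Scp2 with Podn (26363 bp), Ttc39c (26020 bp), a second stretch of Egfr (24650 bp) and the acyl-CoA synthetase Acsl1 (23717 bp). By top fold, Errfi1, a feedback inhibitor of the Egfr receptor, came first with 72.8, followed by albumin, Alb (58.3), and the gluconeogenic enzyme Pck1 (55.5), and Herpud1 had 48.3. The lowest top fold, 1.89, belonged to a region at Gm26917 and CT010467.1 on chromosome 17, where the table lists an rRNA gene.

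The knockout list was far shorter, with 1309 regions from 1649 rows, a median width of 327 bp and 18 regions of 3000 bp or more. Of the 323 broad control regions, 155 (48.0%) were overlapped by a knockout region by at least 1 base, against 4.48% of all control regions and 3.63% of the 16672 narrower ones. A wide region offers more bases to overlap, so the covered length was counted too: knockout regions covered 16.3% of the bases of broad regions (368 kb) and 2.58% of those of narrower ones. The share of regions with an overlap was 1.67% below 500 bp, 5.73% from 500 to 1000 bp, 14.0% from 1000 to 2000 bp, 25.0% from 2000 to 3000 bp, 38.2% from 3000 to 5000 bp, 51.9% from 5000 to 10000 bp and 71.2% of the 52 regions of 10000 bp or more. In those last 3 classes 11.1%, 12.7% and 22.9% of the bases were covered. With 1 library per genotype, genotype cannot be told apart from the depth and the quality of the libraries, which the lists do not give.

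Most broad regions that kept an overlap kept little. Among the 155 the median covered share was 16.9%, 30 were covered over 50% or more, and 168 had no knockout region at all. Of the knockout regions, 488 (37.3%) lay on a broad control region, and so did all 18 that were themselves 3000 bp or more. The covered share rose with the control top fold (Spearman's rho 0.43) more than with the width (0.21), both over 323 regions and as a description. Where the bases lay along the gene made little difference between its 2 parts: knockout regions covered 16.3% of the broad bases in the first 50% of the gene and 15.0% of those in the second. Past the gene's end they covered 25.5%, and ahead of its start 32.6% of a smaller stretch of 15286 bp.

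The regions that remained most complete belonged to a small set of genes. The 18 broad knockout regions lay at 13 genes, among them Errfi1, with the widest at 16804 bp, Pck1 (7731 bp), Tat, Alb, Slc25a25, Pim3, Mat1a, Angptl4, Malat1, Ass1, Slc25a47 and Ftl1. Knockout regions covered 100% of the 3325-bp control region at Malat1. They covered 96.8% of that at Tat, which starts tyrosine breakdown, 95.7% at Errfi1 and 92.5% at the methionine enzyme Mat1a. The share was 91.8% at the kinase Pim3, 91.0% at Alb and 89.7% at Pck1. At the ferritin gene Ftl1 the share was 85.7%, and at Angptl4, a fasting-induced inhibitor of lipoprotein lipase, 85.3%. Ass1 kept 33866 of 49355 bp (68.6%) in 26 pieces. At G6pc, 7 knockout regions covered 5611 of the 12056 bp of the control region (46.5%).

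Other regions of like width had little or nothing left. The 49359-bp region of Egfr had no knockout region, and across the whole of Egfr 434 bp were covered. The 12 broad regions of Adk had none, and 1 of the 11 in Rxra and 2 of the 18 in Mtss1 had one. By contrast 10 of the 12 in Cps1 had one, with 22773 bp of the gene covered. Malat1, the abundant nuclear RNA, went the other way: 2912 of its 6983 bp lay in control regions of any width and 6006 bp in knockout regions. Besides Malat1, only Tesmin among the 256 member genes had more bases in knockout than in control regions (414 and 352 bp).

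**Figure D3:**
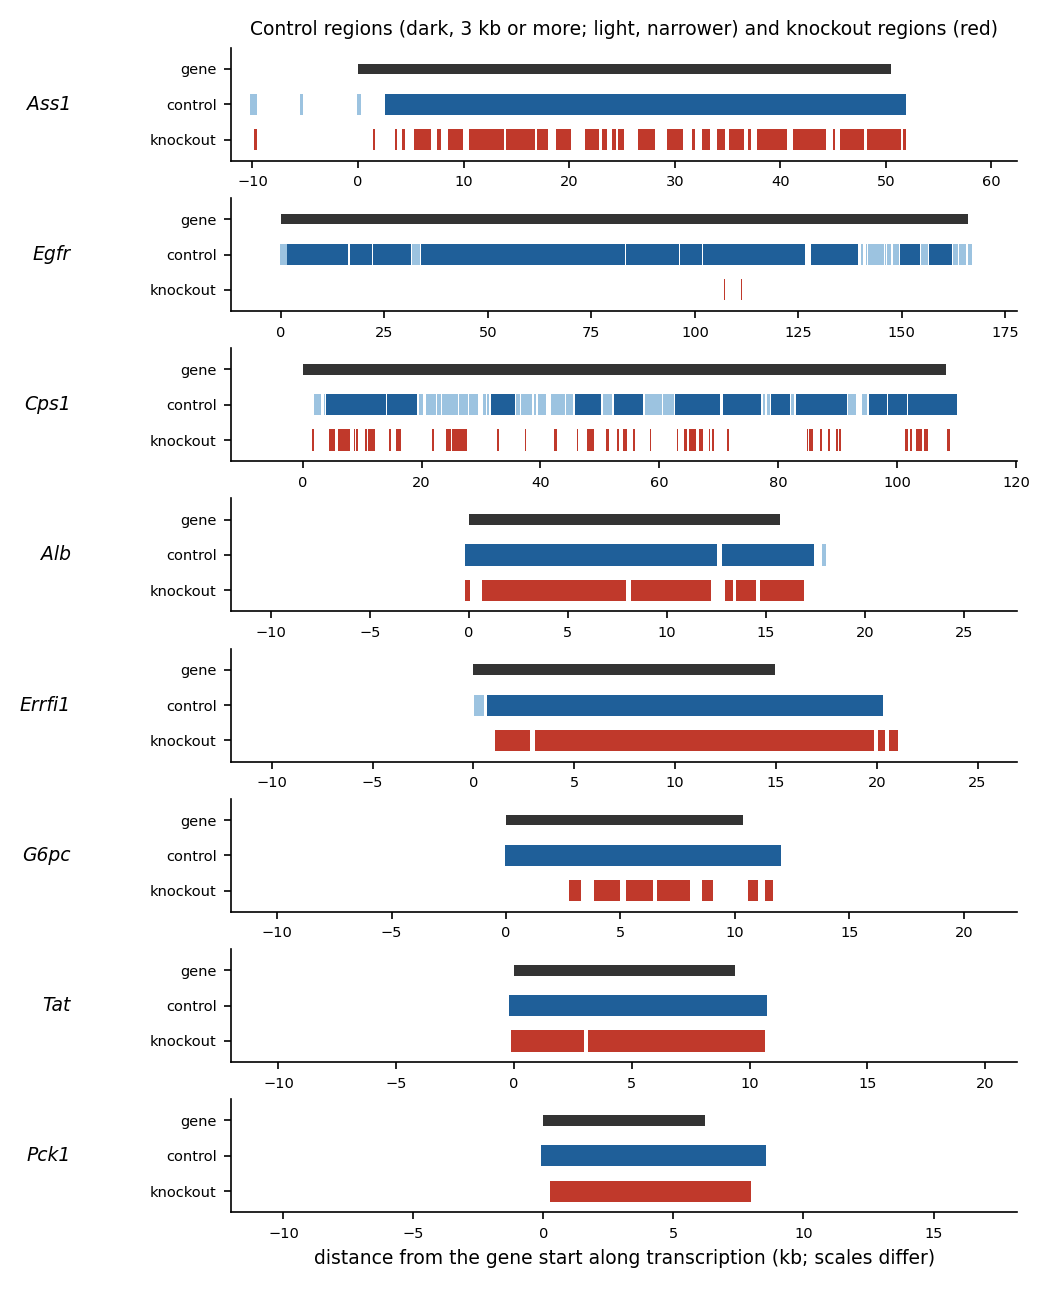
Gene spans (black), control regions (dark blue for 3 kb or more, light blue for narrower) and knockout regions (red) at 8 loci, by distance from the gene's start in the direction of transcription in kb, with a scale of its own for each gene. Knockout regions filled most of the control stretch at Errfi1, Tat, Pck1 and Alb, broke it into pieces at Ass1, Cps1 and G6pc, and left 434 bp at Egfr.

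In the RNA libraries, total counts ran from 22191786 to 26595249. Med19 had 154, 226 and 248 counts in the controls against 90, 166 and 97 in the knockouts (log2 fold change -1.50, SE 0.31, edgeR adjusted p = 0.012). Control replicate 1 stood apart from the other controls: the chi-square per degree of freedom between count profiles was 149.7 and 143.2 against them and 7.408 between those 2. Levels are given in CPM, depth-scaled counts with library sizes adjusted by TMM factors, which do not correct for transcript length. Summed marker RNA of macrophages and of stellate cells and fibroblasts was higher in every knockout, while that of endothelial and bile duct cells overlapped. For macrophages, 20 markers came to 495 to 590 CPM in the controls and 950 to 1130 CPM in the knockouts, with 13 called higher. The 14 stellate cell and fibroblast markers came to 186 to 324 and 332 to 409 CPM (3 higher). Endothelial markers, 13 in number, came to 410 to 495 and 468 to 716 CPM (1 higher). Those of bile ducts, 8 in number, came to 43.1 to 170 and 50.9 to 79.0 CPM (0 of 7 tested). None of these markers was a member gene or stood at 0 in all libraries, and their part in the results below was not tested. In bulk RNA, fewer cells of a type and less RNA per cell cannot be told apart.

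The RNA of member genes was mostly lower in the knockout. Of the 256, 227 passed the filter on low counts, and 119 of these (52.4%) were lower and 6 higher at an edgeR adjusted p under 0.05, against 13.0% lower and 12.6% higher among all 15135 genes tested. A total of 93 were lower by at least 2-fold, and the median log2 fold change was -0.99 against 0.01 over all genes tested. The values of the genotypes did not overlap for 155 member genes (68.3%), against 45.9% of all genes. Of the 29 member genes not tested, 3 were protein-coding and the rest mostly microRNA, antisense and other noncoding genes, none with more than 64 counts in all libraries together. Without control replicate 1, 135 members were lower and 13 higher with a median of -0.87. Calls rose over all genes too in that fit: 2514 of 15741 were lower and 2407 higher, against 1960 and 1905 of 15135 with every library kept. The rise in calls was therefore not particular to the members. When counts were scaled by library size alone, the median of all genes shifted up by 0.59, and 4.08% of all genes were lower and 50.9% higher. Of the members, 87 were lower and 41 higher with a median of -0.40. The members' median lay 1.0 below that of all genes in either scaling. A change of scaling moves all genes nearly alike, so this distance could hardly differ and is no check.

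Member genes were mostly abundant ones, and a larger share of abundant genes was lower. Among the 1630 tested genes with a mean of at least 100 CPM over the 6 libraries, 35.7% were lower and 7.91% higher, with a median of -0.27. The 159 member genes in that class had 101 lower (63.5%), 1 higher and a median of -1.13. Genes in the same class that were overlapped by narrower control regions only numbered 1157, with 32.8% lower and 7.35% higher. Without that limit, 17.5% of 5705 genes with narrower regions only were lower and 9.17% higher, and of 9203 genes with no control region 9.15% were lower and 15.0% higher. With each gene counted once, by the widest control region on it, the share that was lower was 14.2% of 3449 genes below 500 bp, 19.5% at 500 to 1000 bp, 31.1% at 1000 to 2000 bp and 46.8% of 94 genes at 2000 to 3000 bp. Among member genes it was 42.3% of 97 at 3000 to 5000 bp, 58.2% of 79 at 5000 to 10000 bp and 62.7% of 51 at 10000 bp or more. Differences between these classes were not tested, and CPM classes mix level and transcript length.

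**Figure D4:**
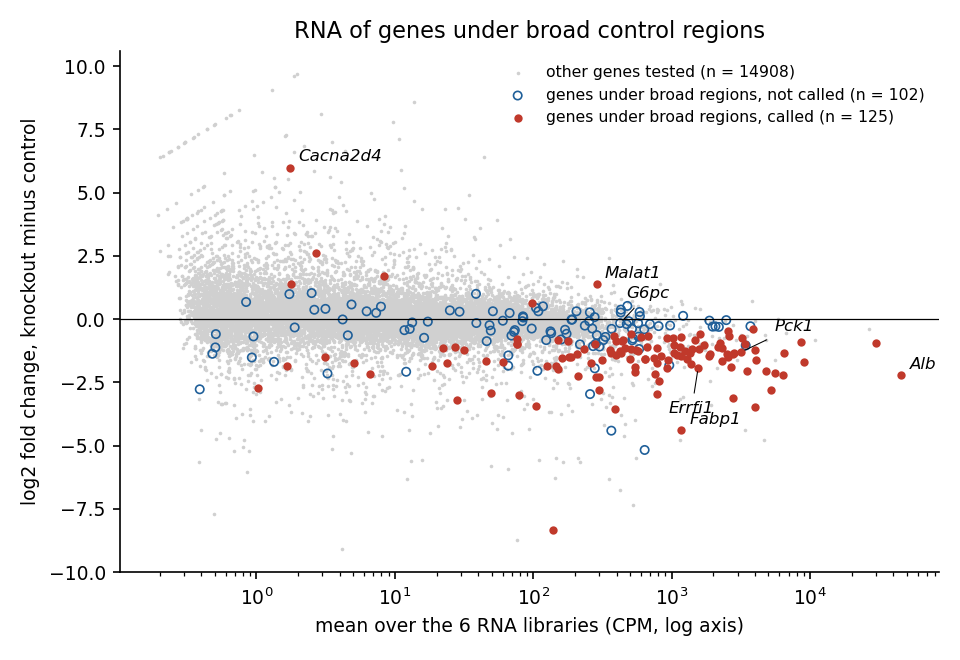
Log2 fold change of RNA, knockout minus control, against the mean CPM over the 6 libraries (log axis) for 15135 genes tested. Filled red points are the 125 member genes past the edgeR threshold, open blue points the 102 others, and grey points all other genes. Most member genes lie below 0 at high CPM, with Malat1 and Cacna2d4 above and G6pc near 0.

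What remained in the knockout list and the RNA change can be set side by side. The 143 tested member genes with at least 1 broad region overlapped by a knockout region had 66 lower (46.2%), 3 higher and a median of -0.88. The 84 with none had 53 lower (63.1%), 3 higher and a median of -1.14. Over 179 tested main genes the covered share and the log2 fold change had a Spearman's rho of 0.32, a description across genes that share the same libraries. The difference between these groups was not tested. Among the 104 tested member genes covered over at least 50% of their span in the control, 64 were lower (61.5%) and 0 higher. Of the 123 covered over less, 55 were lower (44.7%) and 6 higher (4.88%), against 13.0% and 12.6% of all genes tested. A mean of at least 100 CPM was reached by 79.8% of the 104 and 61.8% of the 123. This difference was not tested either.

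Genes of plasma proteins formed the most uniform group. Of 10 plasma carrier genes among the members all 10 fell (median log2 fold change -1.61), and so did all 5 coagulation genes (-2.06), all 4 apolipoprotein genes (-0.94), all 3 complement genes (-1.28) and 6 of 7 serpins (-1.49). Genes of the same lists that were not under broad regions fell in 13 of 20, 5 of 14, 8 of 14, 14 of 21 and 10 of 14 cases. Their medians, in the same order, were -0.77, -0.27, -0.55, -0.71 and -1.03. Under library size alone 9, 5, 2, 2 and 6 of the member genes were lower, and without control replicate 1 the numbers were 10, 5, 4, 3 and 5. Alb had 74369, 74980 and 75825 CPM in the controls and 13928, 21126 and 13714 CPM in the knockouts. All knockout libraries stood below all controls, with a mean of 75058 ± 731 against 16256 ± 4219 CPM (SD, n = 3), and the log2 fold change was -2.21 (SE 0.18; edgeR gave an adjusted p of 0.00044). This fall went with a control region of which 91.0% was still covered in the knockout list.

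The fetuin gene Ahsg, a carrier of calcium phosphate, had 9902, 8746 and 9185 CPM in the controls and 3608, 4164 and 3191 CPM in the knockouts (log2 fold change -1.34, edgeR adjusted p = 0.000687). Ttr, the carrier of thyroid hormone, had a change of -1.61 in log2 (adjusted p = 0.000741 in edgeR). The groups did not overlap in either gene. Apoe, which guides lipoproteins to their receptors, went from 37243, 38072 and 42578 CPM to 21303, 18888 and 20358 CPM (log2 fold change -0.96, edgeR adjusted p = 0.00121). Apoa1 and Apob, the main proteins of high-density and of very-low-density lipoproteins, fell by 0.92 and 0.75 in log2 (adjusted p = 0.00459 and 0.00513 in edgeR), calls that ended under library size alone (0.0637 and 0.252).

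The 3 fibrinogen genes, whose proteins form the clot, fell together. Fga had 19049 CPM in control replicate 1 but 6389 and 6086 CPM in the other controls, and 2316, 2553 and 2008 CPM in the knockouts. Fgb and Fgg followed the same pattern, with log2 fold changes of -2.07 and -2.06 beside -2.20 for Fga (edgeR adjusted p = 0.0256, 0.0189 and 0.0204). Every control stood above every knockout. Without control replicate 1 the falls were 1.45 for Fga, 1.31 for Fgb and 1.36 for Fgg on the log2 scale, and all 3 remained past the threshold. Without any 1 of the knockout libraries, or with no count filter, the calls ended, with edgeR adjusted p from 0.0614 to 0.116.

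Among the other secreted proteins, complement C3 had 19442, 11783 and 10229 CPM in the controls and 4307, 4963 and 3583 CPM in the knockouts (log2 fold change -1.69, edgeR adjusted p = 0.00404). Clusterin, Clu, fell by 0.46 (edgeR adjusted p = 0.0464); the call of Clu ended with the replicate block and in 5 fits with 1 library left out (0.0622 to 0.131), and its sign turned to 0.13 under library size alone. Serpina3k, a protease inhibitor, had 11882, 7972 and 7327 CPM against 1718, 3073 and 1343 CPM (-2.15, edgeR adjusted p = 0.00601). Serpina1b and Serpina1e had log2 fold changes of -1.20 and -3.48; the Serpina1 genes are near-identical copies between which reads could be split, and the call of Serpina1e ended in 4 fits that left out 1 library (0.0792 to 0.124, with the fit without a count filter included). Hepcidin, Hamp, the hormone of iron uptake and the only acute phase gene under a broad region, fell by 1.57 (edgeR adjusted p = 0.0296), and by 1.02 without control replicate 1. Of 13 other acute phase genes 1 fell and 1 rose at the threshold, with a median of -1.03. The call of Hamp ended in each fit without 1 of the knockout libraries, with the block, with no count filter and under library size alone (0.054 to 0.14).

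**Figure D5:**
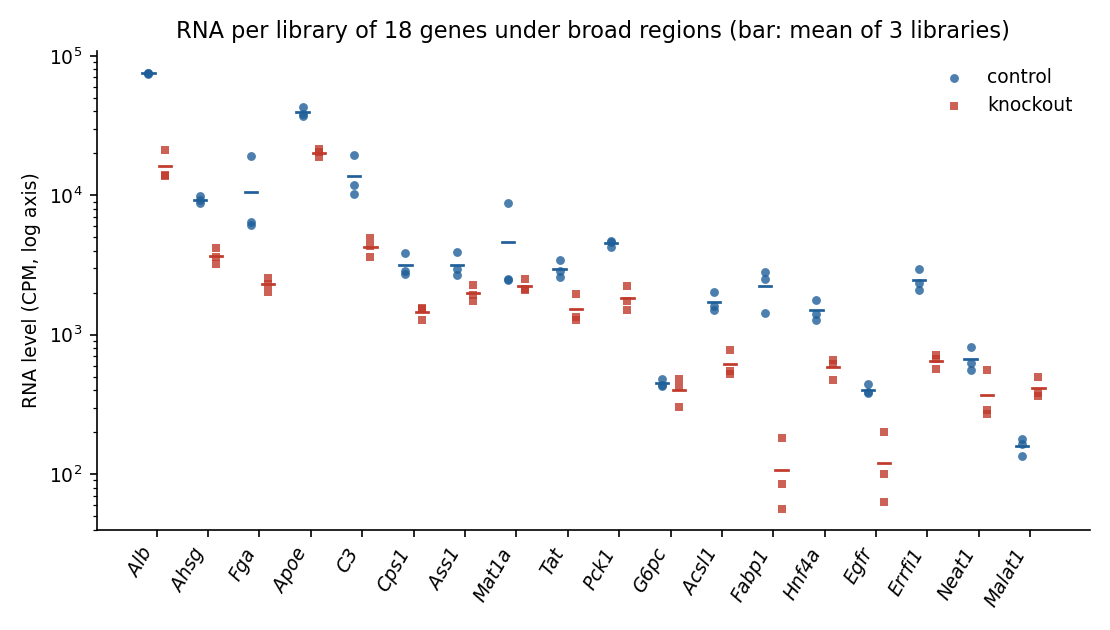
RNA levels in CPM on a log axis for 18 member genes in the 3 control (circles) and 3 knockout (squares) libraries, with bars at the means. Levels are to be compared within a gene, since CPM do not correct for transcript length. Control replicate 1 stands above the other controls in Fga and Mat1a, and the groups overlap in G6pc, Mat1a and Neat1.

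Amino acid breakdown and the urea cycle had the most member genes of any list, 18 of 36. Of these 12 fell and none rose, with a median of -0.74; the 18 listed genes outside broad regions had 6 that fell and a median of -0.39. Under library size alone 6 members were lower and 3 higher. Cps1 had 3859, 2883 and 2744 CPM in the controls and 1270, 1536 and 1543 CPM in the knockouts, with no overlap (log2 fold change -1.13, SE 0.16, edgeR adjusted p = 0.00323). Ass1 had 3893, 2955 and 2696 CPM against 1919, 1743 and 2286 CPM, also without overlap (-0.68, SE 0.17, edgeR adjusted p = 0.0249). Its call ended in 3 fits without 1 library and under library size alone, where the change was -0.08 (0.0539 to 0.695).

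Tat, a gene induced by glucagon and glucocorticoids, had 3413, 2862 and 2573 CPM in the controls and 1275, 1948 and 1349 CPM in the knockouts. The groups did not overlap (log2 fold change -0.95, SE 0.19, edgeR adjusted p = 0.0106), and the call ended under library size alone (0.106) and without knockout replicate 1 (0.0507). Mat1a, which makes S-adenosylmethionine, did not pass the test: control replicate 1 had 8855 CPM, the other controls 2496 and 2476 CPM, and the knockouts 2097, 2135 and 2490 CPM (-1.04, edgeR adjusted p = 0.2). Without control replicate 1 its change was -0.15. Gnmt, which uses up S-adenosylmethionine, stood at 2511 ± 272 and 2444 ± 240 CPM (SD, n = 3), and the tyrosine enzyme Hpd had -0.29 (edgeR adjusted p = 0.181).

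Of the genes of glucose output, 6 lay under broad regions and 2 of them fell, Pck1 and the glycerol channel Aqp9. Pck1, which makes phosphoenolpyruvate from oxaloacetate, had 4268, 4695 and 4593 CPM in the controls and 1757, 2245 and 1510 CPM in the knockouts (log2 fold change -1.30, SE 0.16, edgeR adjusted p = 0.00167). Aqp9 had 589, 606 and 643 CPM against 245, 240 and 251 CPM (-1.32, SE 0.10, edgeR adjusted p = 0.000384). Neither gene's groups overlapped. G6pc, whose enzyme releases free glucose in the last step, had 426, 478 and 436 CPM in the controls and 303, 478 and 422 CPM in the knockouts, and these values overlapped. The log2 fold change came to -0.16 (SE 0.17, adjusted p of 0.532 in edgeR), and to 0.43 under library size alone (0.0717). Fbp1 had -0.28 (edgeR adjusted p = 0.107), the carrier Slc25a25 0.27 (0.384) and the aminotransferase Got1 0.52 (0.394). Without control replicate 1, Slc25a25 (0.50) and Got1 (1.20) were higher at the threshold. Of the 18 listed genes outside broad regions, 4 fell and 4 rose.

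In lipid metabolism 5 of 8 members fell, among them Fabp1, Acsl1 and Acaa1b, and none rose (median -1.43). Acsl1 had 2035, 1609 and 1515 CPM in the controls and 552, 778 and 524 CPM in the knockouts, with no overlap (log2 fold change -1.48, edgeR adjusted p = 0.00208). Fabp1, the fatty acid carrier of the liver cytosol, had 1437, 2495 and 2796 CPM against 84.4, 182 and 56.6 CPM (-4.38, SE 0.53, edgeR adjusted p = 0.0031), and no knockout region overlapped its control region, whose top fold was 45.5. Fabp1 and Acsl1 are targets of the nuclear receptor PPAR alpha, as is Cyp4a14, which had 3004 CPM in control replicate 1, 363 and 356 CPM in the other controls and 27.5, 71.9 and 3.99 CPM in the knockouts (-5.17, edgeR adjusted p = 0.0558). Of 27 other lipid genes tested, 8 fell and 3 rose.

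Of 7 drug metabolism members 5 fell: Cyp2e1, Mgst1, Adh1, Cyp2d10 and Ces3b (median of the list -1.72). Of 44 other listed drug metabolism genes tested, 30 fell and 5 rose (median -1.07). Cyp2e1, which oxidises ethanol, had 8037, 9519 and 9940 CPM in the controls and 1452, 1629 and 905 CPM in the knockouts (log2 fold change -2.79, SE 0.23, edgeR adjusted p = 0.00044). The glutathione transferase Mgst1 fell by 1.47. Por, the electron donor of the cytochromes, had 0.28 (edgeR adjusted p = 0.451). Of 5 bile acid and sterol members Scp2, Slc10a1 and Slco1b2 fell, and of 21 others on that list 10 fell and 1 rose. The organic anion carrier Slco1b2 had 478, 819 and 853 CPM against 62.8, 86.1 and 32.5 CPM (-3.57, edgeR adjusted p = 0.00219), and Scp2 fell by 1.88. Abcc2, the export pump for conjugated bilirubin, had -0.69 (edgeR adjusted p = 0.0636) and passed in DESeq2 (0.0239) and without control replicate 1.

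Regulators were among the members too. Of 7 hepatocyte transcription factor genes 5 fell, Hnf4a, Rxra, Cebpb, Klf9 and Onecut1, while Klf15 (log2 fold change -0.26, edgeR adjusted p = 0.71) and Ppara (-0.65, 0.137) did not pass; without control replicate 1 all 7 were lower, and under library size alone 3 were. Hnf4a, a master regulator of hepatocyte genes, had 1783, 1417 and 1276 CPM in the controls and 619, 660 and 472 CPM in the knockouts (-1.35, SE 0.18, edgeR adjusted p = 0.00224). Rxra, the partner of many nuclear receptors, had 770, 669 and 661 CPM against 321, 346 and 261 CPM (-1.18, edgeR adjusted p = 0.00151). No value overlapped in either gene. Of 29 other transcription factor genes tested, 10 fell and 3 rose.

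Egfr and its feedback inhibitor Errfi1 both lay under wide regions and both fell. Egfr had 440, 386 and 381 CPM in the controls and 99.7, 199 and 63.5 CPM in the knockouts (log2 fold change -1.74, SE 0.40, edgeR adjusted p = 0.022). That call ended without any 1 of the control libraries, without knockout replicate 1 and with no count filter (0.0522 to 0.113). Errfi1 had 2937, 2348 and 2081 CPM against 716, 674 and 563 CPM, with no overlap (-1.91, SE 0.17, edgeR adjusted p = 0.000507). The 2 genes differed in the knockout list, where 95.7% of the broad region of Errfi1 and none of the widest region of Egfr was covered. Mtss1, with the most broad regions, fell by 0.88 (edgeR adjusted p = 0.00935), and Adk, with no broad region left, had -0.20 (edgeR adjusted p = 0.192). The call of Mtss1 ended under library size alone (0.14), where Adk had 0.39.

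None of the 7 genes of the glucagon, fasting and immediate early list passed in either direction, at a median of -0.37. For Trib1, Igfbp1 and Ppp1r3b control replicate 1 lay far from the other controls. Trib1, a pseudokinase that restrains lipogenesis, had 1930, 85.0 and 84.4 CPM in the controls and 31.6, 45.8 and 21.5 CPM in the knockouts (log2 fold change -4.41, edgeR adjusted p = 0.0822). Igfbp1, a fasting-induced binding protein of insulin-like growth factors, had 1114, 132 and 122 CPM against 50.6, 78.9 and 45.9 CPM (-2.96, edgeR adjusted p = 0.0842). In both genes every knockout value lay below every control. Ppp1r3b, which promotes glycogen synthesis, had 145, 351 and 373 CPM against 142, 165 and 129 CPM (-0.997, edgeR adjusted p = 0.0731). Without control replicate 1, these 3 genes had -1.37, -1.12 and -1.32 and passed (edgeR adjusted p = 0.0213, 0.0124 and 0.000125). Angptl4 ranged from 133 to 333 CPM in the controls and from 51.1 to 366 CPM in the knockouts, and its sign changed with the library left out. Of 32 listed genes outside broad regions, 5 rose and 1 fell.

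Of 5 members of the list for protein folding in the endoplasmic reticulum 4 fell, Hspa5, Herpud1, Pdia3 and Pdia4 (median -1.24), and so did 12 of the 15 listed genes outside broad regions (median -1.04). Herpud1 had 1476, 1543 and 1389 CPM in the controls and 421, 464 and 269 CPM in the knockouts (log2 fold change -1.93, SE 0.20, edgeR adjusted p = 0.000887). Hspa5, the main chaperone of that compartment, fell by 1.38 (edgeR adjusted p = 0.0431) and Pdia3 by 0.70 (0.0294), and both calls ended in several fits without 1 library and under library size alone (up to 0.184 and 0.566). Of 5 housekeeping genes 2 fell, one of them Ftl1 (-0.87), whose call ended under library size alone (0.102), and 10 of 19 others tested on that list fell. The cytosolic chaperones Hspa8 and Hsp90ab1 and the actin gene Actb did not pass, with log2 fold changes of -0.30, -0.06 and -0.40 that were all above 0 under library size alone. Pim3, with 91.8% of its region left, had 0.31 (edgeR adjusted p = 0.298).

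Noncoding RNAs took a different course from one another. Malat1 had 163, 179 and 135 CPM in the controls and 380, 498 and 364 CPM in the knockouts, with no overlap (log2 fold change 1.38, SE 0.17, edgeR adjusted p = 0.00157). It was the 1 member gene with a mean of at least 100 CPM over the 6 libraries that rose. More of its span lay in knockout than in control regions. Neat1, its neighbour on chromosome 19, had 813, 623 and 557 CPM against 271, 286 and 559 CPM (-0.84, edgeR adjusted p = 0.0845), where knockout replicate 3 stood among the controls. Without knockout replicate 3 Neat1 had -1.27 (edgeR adjusted p = 0.0106), and it also passed in DESeq2 (0.0221). Of 7 other listed nuclear RNAs tested, 2 fell and 1 rose. The counts of Frmd8os and Gm27702, which overlap the Neat1 region, and of the antisense genes Egfros and 1700045H11Rik were too low to test. The gene of the liver microRNA miR-122, Mir122, had a control region 74.7% covered in the knockout list and likewise too few counts.

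Among the largest falls of member genes that passed the test and reached 5 CPM were those of Serpina4-ps1 (log2 fold change -8.32), Fabp1, Slco1b2, Serpina1e and the antisense gene B430119L08Rik (-3.21). Serpina4-ps1, a pseudogene beside other serpins, had 469, 175 and 187 CPM in the controls and 0.775, 1.81 and 0 CPM in the knockouts. None of these groups overlapped, which the rule that chose these genes requires. No knockout region overlapped the broad region of Serpina4-ps1, Fabp1, Slco1b2 or Serpina1e.

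The 6 members that rose were Malat1, Cdpf1, Ctdsp2, Avil, Cacna2d4 and Dlec1. Cdpf1 had 2.87, 4.72 and 4.31 CPM in the controls and 12.9, 13.4 and 12.2 CPM in the knockouts (log2 fold change 1.69, edgeR adjusted p = 0.00187). Ctdsp2, a phosphatase gene, rose by 0.63 (edgeR adjusted p = 0.0232) from 76.9 ± 8.28 to 119 ± 20.3 CPM (SD, n = 3), a call that ended in 4 fits without 1 library (0.0543 to 0.0885). The others were not the main gene of their broad region. Avil (2.63, edgeR adjusted p = 0.0145) lay beside Ctdsp2, Dlec1 (1.37, 0.031) beside Acaa1b, which fell by 2.96, and Cacna2d4 beside Adipor2, which fell by 0.60. Cacna2d4 had 0, 3 and 0 counts in the controls against 99, 65 and 164 in the knockouts (edgeR adjusted p = 0.00231). The calls of Avil and Dlec1 ended in 2 and 3 fits without 1 library (0.0525 to 0.0919). When the main gene of each region alone was counted, 3 were higher and 105 of 179 lower. Broad regions covered 100 bp of Avil (0.493% of its span), 880 bp of Cacna2d4 (0.759%) and 2450 bp of Dlec1 (5.35%). The region of Cdpf1 overlapped no other gene of the table, covered 711 bp of Cdpf1 (15.0%) and ran 3211 bp past its end. The sources used here do not give the strand setting of the counting, so reads of overlapping genes on opposite strands cannot be told apart. Among these neighbours this concerns Dlec1 and Acaa1b, whereas Avil and Ctdsp2, and Cacna2d4 and Adipor2, do not overlap.

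At the region with the lowest top fold, Gm26917 and the rRNA gene CT010467.1 both fell, with log2 fold changes of -1.14 (edgeR adjusted p = 0.0158) and -0.87 (0.00982). Genes of ribosomal RNA occur in many copies, so the placement of their reads is uncertain in both assays, and both calls ended under library size alone (0.113 and 0.157), that of Gm26917 also without knockout replicate 1 (0.0643).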

How the data were processed

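The 8 libraries, 3 of RNA and 1 of ChIP per genotype, were grouped by the sample titles and genotype labels. The deposited RNA table gives raw counts for each gene with mm10 positions; the submitters' processing notes name HTSeq 0.6.0, HISAT2 2.1.0 and Bowtie2 2.2.3. For the ChIP lists, in narrowPeak layout, the same notes name MACS2, BWA, deepTools, SAMtools and DESeq2, without versions. The authors deposited for every row its fold over background (a ratio), a score, and q- and p-values as -log10; -log10 q starts at 1.31 for the control list and 1.3 for the knockout one. Fold is each peak's own value and was used within a list only. The sources used here do not say whether an input library was used or how deep the ChIP libraries were. Lists were made per library.

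Positions are printed 1-based. RNA counts passed through filterByExpr (at least 10 counts, 15 in total) and TMM scaling to edgeR 4.0.16 in R 4.3.3 (quasi-likelihood, robust fit, two-sided, with genotype as sole term, common biological coefficient of variation 0.235), with Benjamini-Hochberg adjustment over all genes tested and a threshold of 0.05. The TMM factors were 0.772 to 0.838 in the controls and 1.20 to 1.27 in the knockouts. DESeq2 1.42.0 was an alternative. The fit was tested on simulated data. The number of RNA libraries limits the precision, and the labels do not name separate animals, so the p-values reflect the spread between these samples alone, which may be technical.

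Named genes are Med19, genes under the 10 widest regions, the 5 with the highest fold and the 10 with most bases left in the knockout, the 6 largest rises and falls among genes that passed the test, reached a mean of 5 CPM in one genotype and had no overlap between genotypes (3 rises met this), and the 3 most abundant members of each list. G6pc, Got1, Gnmt, Hpd, Angptl4, Mtss1, Adk, Mir122, Pim3, Por, Ftl1, CT010467.1, Gm26917, Avil, Cacna2d4 and Dlec1, genes named as the members of a count, and other genes named for their regions were chosen after their values were seen. Some genes that these rules name are not reported here. The members and the 23 gene lists (553 entries, 539 in the table) were chosen with earlier results of these data known. A list's counts are set beside those of its other genes, with no test of the list. Of the list of major urinary proteins 0 and of 32 Mediator subunits 0 were member genes.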

Additional observations from a re-analysis of the deposited data

How the results depend on the processing

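The number of member genes that were lower stayed within 1.5 times of 119 with DESeq2 (134, with 8 higher), DESeq2's size factors in edgeR (120), no count filter (108) and library size alone (87). Under library size alone 41 were higher in place of 6, and the median was -0.40. With 1 library left out, 95 to 135 were lower and 3 to 13 higher, and the median ran from -1.1 to -0.87. With the replicate number as a block, 115 were lower and 6 higher with a median of -0.96. The number of calls over all genes moved as well. It was 1960 lower and 1905 higher as reported, 2298 and 2123 with DESeq2, 1828 and 2074 with no count filter, and 1755 and 1713 with the block. With 1 library left out, 1104 to 2514 of all genes were lower and 1119 to 2407 higher. The members' counts are to be read beside these. Same-numbered libraries had correlations of deviations of 0.11, 0.052 and 0.094, not all above 0.1, so the numbers were not taken as a pairing, though every library correlated best with its own number. A minimum width of 2000 bp gave 547 regions and a median of -0.83, and one of 5000 bp gave 158 regions, 92 with a knockout region, 1 gene higher, 78 lower and a median of -1.18. Merging regions within 1000 bp of each other gave 682 broad regions. Counting genes whose start lay in the region gave 23 lower and 1 higher, genes holding at least 50% of the region 2 higher, and the main gene alone, an alternative added after the data were seen, 3 higher. Of the broad regions, 30 had knockout regions over 50% or more of their length, and 88 a knockout row with -log10 q of at least 5. Among the genes reported, signs turned positive under library size alone for Ten1, under 1 of the 10 widest regions (0.25), Clu (0.13), Fbp1 (0.32), Klf15 (0.30), Hspa8 (0.29), Hsp90ab1 (0.52), Actb (0.21), Angptl4 (0.47), Gnmt (0.56), Hpd (0.31), Adk (0.39) and G6pc (0.43). With 1 library left out, values also crossed 0 for Hspa8 (-0.61 to 0.01), Hsp90ab1 (-0.22 to 0.13), Actb (-0.61 to 0.08), Angptl4 (-0.50 to 0.39) and Gnmt (-0.10 to 0.05). None of these genes but Clu had passed the test. Beyond what each alternative changes by construction, the cause was not tested. With 1 ChIP library per genotype, the knockout overlaps carry no error.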
